A study of Mus musculus with 12 samples.

Results

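The 10 genes described here encode secreted ligands of the transforming growth factor-beta (TGF-β) family: the TGF-β genes Tgfb1, Tgfb2 and Tgfb3, the activin subunit genes Inhba and Inhbb, and the bone morphogenetic protein (BMP) genes Bmp2, Bmp4, Bmp6, Bmp7 and Bmp10. They were chosen by gene symbol from the 24062 genes of the count table, and 10 of 10 were found and passed the filter on low counts in every comparison. RNA-Seq was performed on heart samples of 12 mice in 4 groups of 3, with 1 library per mouse. Adult WT and KI/KI mice were 2 months old, and KI/KI mice were homozygous in every cell for the Lemd2 c.T38>G knock-in allele, which alters the nuclear envelope protein LEMD2. The other groups were taken at postnatal day 1 (P1). Floxed mice carried loxP sites around the first exon of both Lemd2 copies without Cre. The cKO mice carried the same floxed alleles and a Myh6-Cre transgene, whose α-myosin heavy chain promoter is active in cardiomyocytes, so that other cells of the heart kept the gene.

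Ligands of this family bind pairs of type I and type II receptor kinases, which phosphorylate Smad proteins. TGF-βs and activins act mainly through Smad2 and Smad3, and BMPs through Smad1, Smad5 and Smad8. TGF-βs are secreted in a latent form held in the extracellular matrix and are best known in the heart for fibroblast activation, whereas BMPs guide heart formation, and BMP10 is made largely by atrial cardiomyocytes.

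Library totals ranged from 37063669 to 44789753 counts. Levels are given as CPM, counts per 1000000 of the library after TMM scaling over the 12 hearts, and 3 counts correspond to at most 0.0962 CPM. Lemd2 was at 31.9 to 34.7 CPM in WT hearts and 24.8 to 25.6 in KI/KI hearts, and at 24.4 to 25.3 in floxed hearts against 6.64, 13.1 and 11.3 in cKO hearts 4, 5 and 6. Several libraries stood apart. Lung marker genes summed to between 42.4 and 420 CPM in 5 hearts (WT 3, KI/KI 4, floxed 1, floxed 2 and cKO 4). Their sum was 23.3 CPM in cKO 6 and at most 4.07 in the others. Xist was at 617 CPM in cKO 4 and at no more than 2.03 in the other hearts. Y-linked genes summed to 0.0805 CPM in cKO 4 and to 222 to 375 in the others. By these RNAs cKO 4 was the only female heart, so sex was not balanced between cKO and floxed hearts. The part of sex in the ligand levels was not tested. Among cKO hearts, cKO 6 had the lowest atrial myosin light chains, with Myl7 at 118 CPM against 911 in cKO 4. In bulk tissue, fewer cells of a type and less RNA per cell cannot be told apart.

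RefSeq's GRCm38.p6 table held a promoter for 7 of the 10 genes. The 250 bases before the annotated start are shown for 3 of the 4 genes among them that edgeR called higher in cKO hearts with a change of more than 2-fold, with matches to the TATA motif in capitals. Each is written from 5′ to 3′ on the strand of its gene.
Tgfb2 (minus strand, chr1:186705990-186706239): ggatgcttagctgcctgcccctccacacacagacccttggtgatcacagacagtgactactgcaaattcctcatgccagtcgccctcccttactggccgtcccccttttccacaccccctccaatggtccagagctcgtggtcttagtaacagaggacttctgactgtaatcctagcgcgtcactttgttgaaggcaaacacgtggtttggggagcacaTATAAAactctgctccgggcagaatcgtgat
Inhba (plus strand, chr13:16011601-16011850): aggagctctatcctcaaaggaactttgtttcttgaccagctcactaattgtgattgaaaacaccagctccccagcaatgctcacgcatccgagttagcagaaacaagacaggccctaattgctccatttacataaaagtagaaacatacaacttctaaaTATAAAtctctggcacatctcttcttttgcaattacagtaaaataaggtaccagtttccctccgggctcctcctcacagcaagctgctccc
Bmp4 (minus strand, chr14:46390670-46390919): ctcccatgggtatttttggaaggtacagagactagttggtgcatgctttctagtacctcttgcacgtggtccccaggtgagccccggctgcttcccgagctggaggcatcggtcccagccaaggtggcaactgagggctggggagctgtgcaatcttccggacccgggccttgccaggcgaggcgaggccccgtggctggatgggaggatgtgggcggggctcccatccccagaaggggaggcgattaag

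For the fourth gene, Bmp6, the window (plus strand, chr13:38345466-38345715) lies inside the gene as GENCODE M21 annotates it and is not printed. The 4 windows differed in base composition. G and C made up 43.2% of the Inhba window and 53.6% of the Tgfb2 window, against 63.2% for Bmp4 and 68.8% for Bmp6. CG pairs numbered 3 in Inhba, 8 in Tgfb2, 11 in Bmp4 and 22 in Bmp6. The letters TATAAA, searched on both strands, started 31 bases before the Tgfb2 start and 91 bases before the Inhba start, and 12.4% of all 32851 promoters of this length held them. The other motifs searched on both strands were the cAMP response element TGACGTCA (held by 1.55% of promoters), the AP-1 motif TGANTCA (6.75%), the Smad palindrome GTCTAGAC (0.167%) and the TEAD motif GGAATG (12.6%). None of these letters was in any of the 7 ligand windows.

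To ask how much of each ligand RNA the heart holds, levels were divided by exon length, as CPM per kilobase of the exons annotated in GENCODE M21. In P1 floxed hearts, Bmp7 was at 11.6 ± 2.13 (SD, n = 3), Tgfb3 at 10.7 ± 0.991, Tgfb2 at 10.2 ± 0.751 and Bmp10 at 7.91 ± 1.66, and each of these overlapped the next in order. Tgfb1 (5.79 ± 0.128) lay between Bmp10 and Bmp4 with no overlap. Bmp4 (4.15 ± 0.488), Bmp6 (3.29 ± 0.570) and Bmp2 (2.39 ± 0.395) formed an overlapping series, and Inhbb (1.46 ± 0.209) and Inhba (0.985 ± 0.0807) were lowest, without overlap.

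Adult WT hearts had another order. Bmp10 led at 24.4 ± 7.61 CPM per kilobase, above Tgfb3 at 11.5 ± 0.337. Tgfb1 (6.57 ± 0.278) and Bmp6 (6.18 ± 0.342) overlapped each other, and Bmp4 (5.35 ± 0.421) and Tgfb2 (3.59 ± 0.131) followed without overlap. Bmp2, Inhbb, Bmp7 and Inhba were at most 1.06 in every WT heart, and neighbours among them overlapped. In KI/KI hearts the same pair led, Bmp10 at 30.0 ± 6.01 and Tgfb3 at 17.1 ± 6.19, now overlapping. In cKO hearts Tgfb3 (33.0 ± 13.6) and Tgfb2 (27.4 ± 8.72) came before Bmp10 (20.4 ± 17.5), and the ranges of the first 6 genes overlapped from one to the next. With the longest annotated transcript as length, which for Tgfb1 is a transcript of 1 exon, Tgfb1 moved up by 1 or 2 places in each group.

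**Figure D1:**
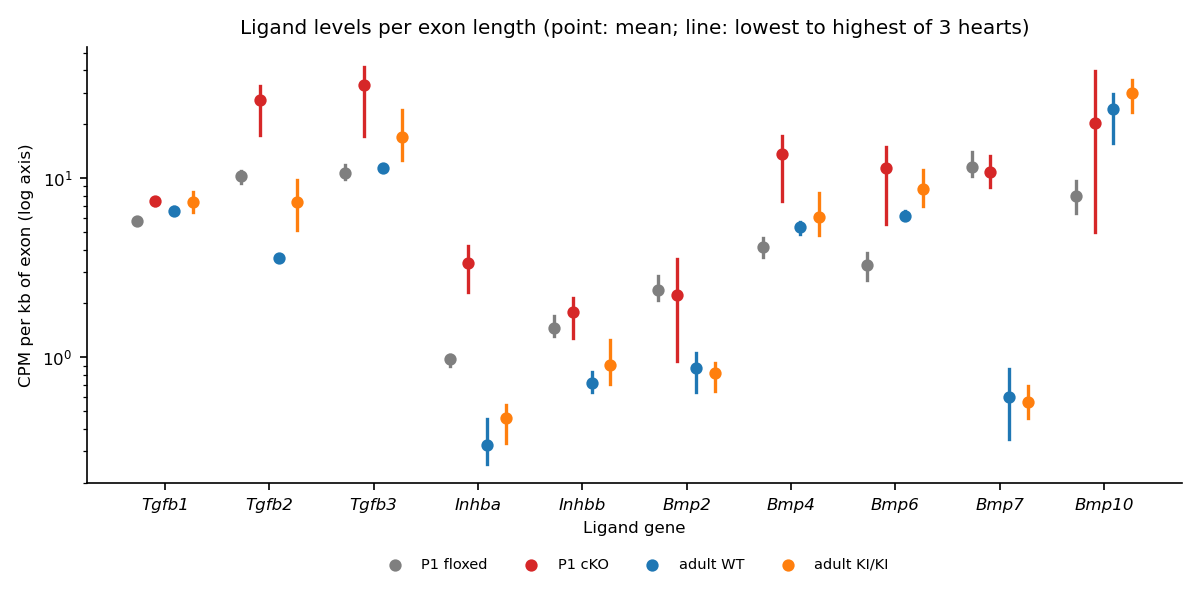
Levels per exon length of the 10 ligand genes, in CPM per kilobase on a log axis, with the mean as a point and a line from the lowest to the highest of 3 hearts in each group. Bmp7 averages 11.6 in floxed and 10.8 in cKO hearts and is at most 0.862 in every adult heart, and Bmp10 is the highest ligand in both adult groups.

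Loss of Lemd2 in cardiomyocytes was examined by comparing cKO with floxed hearts at P1. Of the 10 ligand RNAs, 6 were called higher in cKO hearts and 0 lower (edgeR's quasi-likelihood test, adjusted p under 0.05), where 9.15% of the 15317 genes tested were called higher and 7.31% lower. Of those 6, 5 rose more than 2-fold, where 4.48% of all genes were called with a change of more than 2-fold in either direction. The same 6 did not overlap between groups, against 20.1% of genes with every cKO heart above every floxed heart. The median log2 fold change of the 10 genes was 1.40, and that of all genes tested was -0.0048. Inhbb, Bmp2, Bmp7 and Bmp10 were not called.

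Among the TGF-βs, Tgfb2 was measured at 54.7, 63.3 and 60.0 CPM in the floxed group, and at 188, 187 and 100.3 in cKO hearts 4, 5 and 6. Every cKO heart lay above every floxed heart, and cKO 6 was the lowest of the 3. The log2 fold change of 1.42 had a standard error (SE) of 0.24 and an adjusted p of 0.0146 in edgeR's test. Tgfb3 stood at 33.4, 40.0 and 35.6 CPM without Cre and at 135, 141 and 58.5 in the cKO group, with cKO 6 again the lowest of its group. It rose by 1.62 on the log2 scale (SE 0.32, adjusted p = 0.0211). Tgfb1, which encodes the TGF-β found in platelets and many immune cells, moved less, from 28.7, 28.9 and 29.9 CPM to 35.7, 37.4 and 39.0. Here cKO 6 was the highest heart, and the small change (log2 fold change 0.36, SE 0.07) had an adjusted p of 0.0231.

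Inhba encodes the βA subunit of activin A. Its RNA was found at 6.62, 5.70 and 6.56 CPM in the floxed group and at 26.6, 23.1 and 14.8 in the cKO group, a 3.42-fold rise (log2 fold change 1.78, SE 0.23, adjusted p = 0.00766). The groups lay far apart relative to the floxed spread, although Inhba remained a low RNA beside Tgfb2 on the CPM per kilobase scale, at 3.36 ± 0.950 in cKO hearts. The βB subunit RNA, Inhbb, had 5.78, 7.23 and 5.60 CPM without Cre against 9.17, 8.30 and 5.46 with it. Its groups overlapped through cKO 6, and its log2 fold change of 0.31 (95% interval -0.23 to 0.84) was not called.

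Of the BMPs, Bmp4 and Bmp6 rose and Bmp2 and Bmp7 were not called. Bmp4, a ligand used repeatedly in heart development, had 9.38, 8.21 and 10.4 CPM in the floxed group and 38.5, 36.3 and 16.8 in the cKO group (log2 fold change 1.71, SE 0.32, adjusted p = 0.0173). Bmp6, known for the control of hepcidin and iron, was at 10.6, 12.9 and 15.0 CPM and then 58.5, 52.5 and 21.7 (log2 fold change 1.79, SE 0.37, adjusted p = 0.0227). Both genes had 2 cKO hearts at similar high values and cKO 6 closer to the floxed hearts. Bmp7 had 41.8, 41.2 and 56.3 CPM in the floxed group and 35.8, 53.4 and 41.4 in the cKO group. The groups overlapped, as floxed 3 was the highest and cKO 4 the lowest of the 6 hearts, with a log2 fold change of -0.10 (95% interval -0.52 to 0.33). Bmp2, which acts in valve formation, ranged from 7.41 to 10.1 CPM in floxed hearts and from 3.39 in cKO 6 to 12.5 in cKO 5, with an interval of -1.10 to 0.91.

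**Figure D2:**
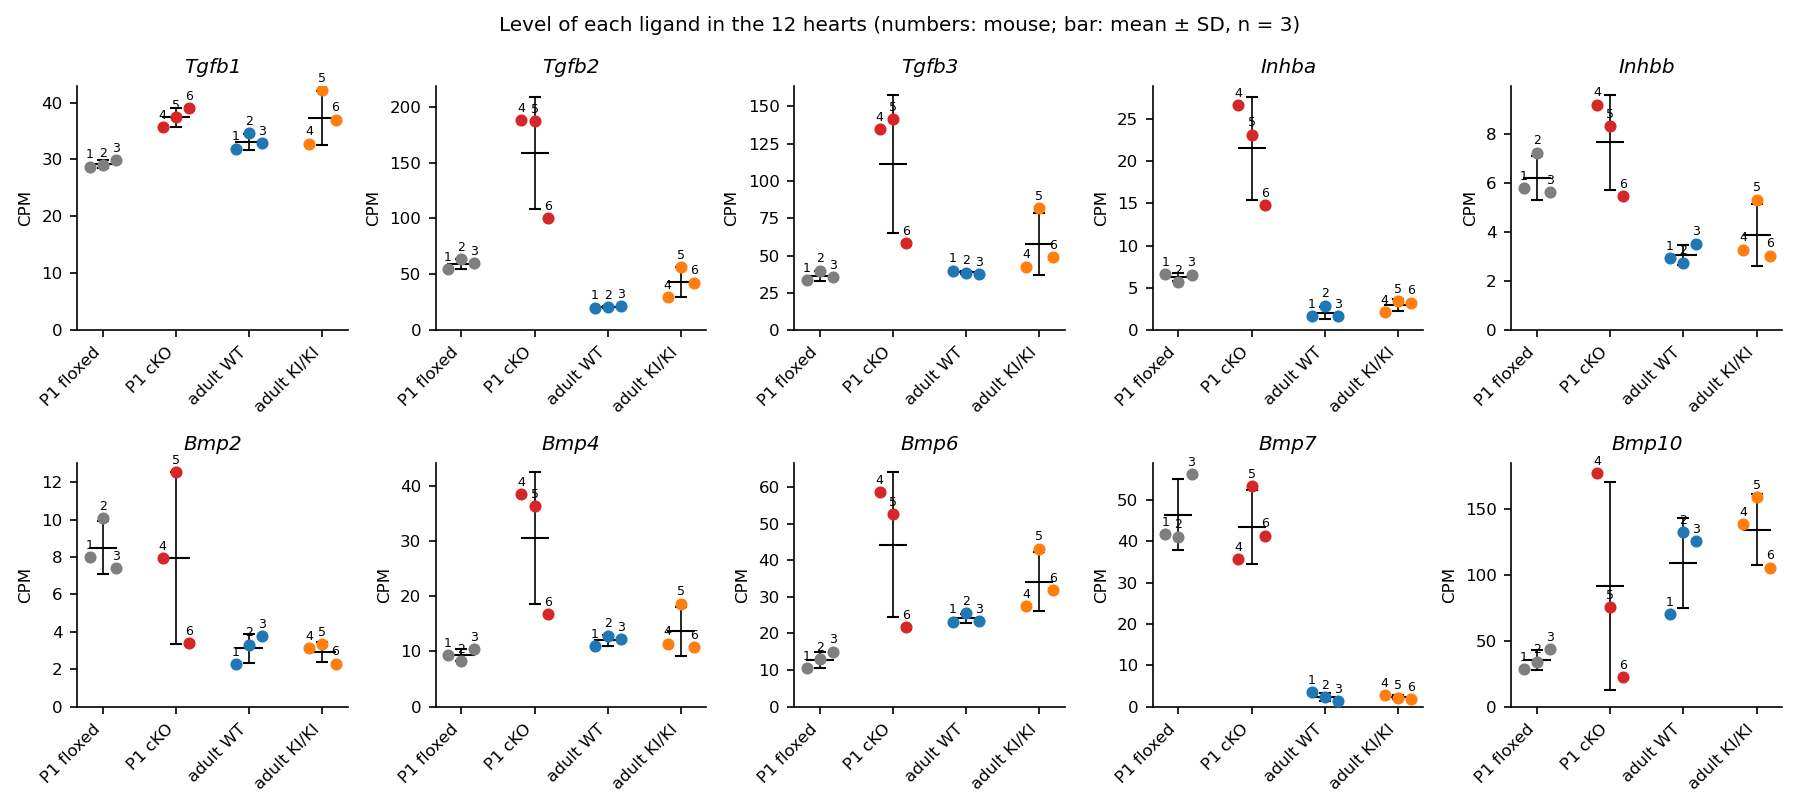
CPM of each ligand RNA in the 12 hearts, 1 panel per gene with a linear axis from 0, points numbered by mouse and bars for the mean ± SD of 3 hearts. cKO 6 is the lowest cKO heart for 8 of the 10 genes, and KI/KI 5 is the highest KI/KI heart for 9 of 10.

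These calls depended on single hearts. The number of members called was 0 without floxed 1, 1 without floxed 2, 4 without floxed 3, 6 without cKO 4, 1 without cKO 5 and 7 without cKO 6. Over all genes the same fits called 129, 623, 1665, 1842, 482 and 3385, against 2520 with every heart. Inhba held its call in 5 of these 6 fits (adjusted p = 0.0525 without floxed 1). Tgfb1, Tgfb2 and Bmp4 held theirs in 3 of 6, losing it without floxed 1, floxed 2 or cKO 5, where adjusted p reached 0.123, 0.0860 and 0.0905 at most. Tgfb3 and Bmp6 lost theirs without floxed 3 as well, and held it in 2 of 6 (adjusted p up to 0.108 and 0.113). The log2 fold changes themselves moved little, from 1.58 to 1.98 for Inhba, 1.27 to 1.66 for Tgfb2, 1.43 to 1.93 for Tgfb3, 1.50 to 2.00 for Bmp4 and 1.53 to 2.11 for Bmp6. In 1 fit, chosen after seeing the data, hearts with summed lung markers over 25 CPM were left out. The 7 hearts kept included cKO 6, just under that limit at 23.3 CPM, while the others kept had at most 4.07. The 5 genes above had log2 fold changes from 1.26 to 1.53 between 2 cKO hearts and 1 floxed heart.

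Bmp10 had the widest spread among cKO hearts of the 10 ligands, relative to its level. Its level was 28.8, 34.3 and 43.6 CPM without Cre and 177, 75.5 and 22.5 in cKO hearts 4, 5 and 6, so that the cKO group held both the highest and the lowest P1 heart, as it did for Bmp2 and Inhbb. The log2 fold change, 1.38 with an SE of 0.65 (adjusted p = 0.181), was not called, became 1.83 with an adjusted p of 0.0238 without cKO 6, and was 0.46 without cKO 4. The atrial myosin light chain genes Myl4 and Myl7 summed to 806, 1360 and 1189 CPM in floxed hearts and to 2663, 1736 and 404 in cKO hearts, with the same order of cKO hearts as Bmp10. A ratio of Bmp10 per 100 CPM of Myl4 and Myl7 was chosen after the values were seen. It came to 3.57, 2.52 and 3.66 without Cre and to 6.66, 4.35 and 5.56 in the cKO group, with no overlap. In adults this ratio ranged from 4.39 to 9.48 in WT and from 6.66 to 10.4 in KI/KI hearts. The separation at P1 depended on the markers chosen. Nppa, another atrial marker, reached 2198 CPM in cKO 6 and no more than 1502 in any floxed heart. Relative to Nppa, Bmp10 in cKO 6 was therefore below every floxed heart. Relative to all 6 atrial markers it was below floxed 3, whose sum was 2654 CPM against 2693 in cKO 6. How many other genes separate by such a ratio was not counted. The summed level of all 6 atrial markers, of which Nppa made up the most, ranged from 1855 to 3117 CPM in floxed and from 2693 to 9786 in cKO hearts, and its part in the Bmp10 values was not tested. Of these 6 markers, Nppa was called higher (log2 fold change 1.95) and Stard10 lower (-0.87), and the list median was 0.02.

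**Figure D3:**
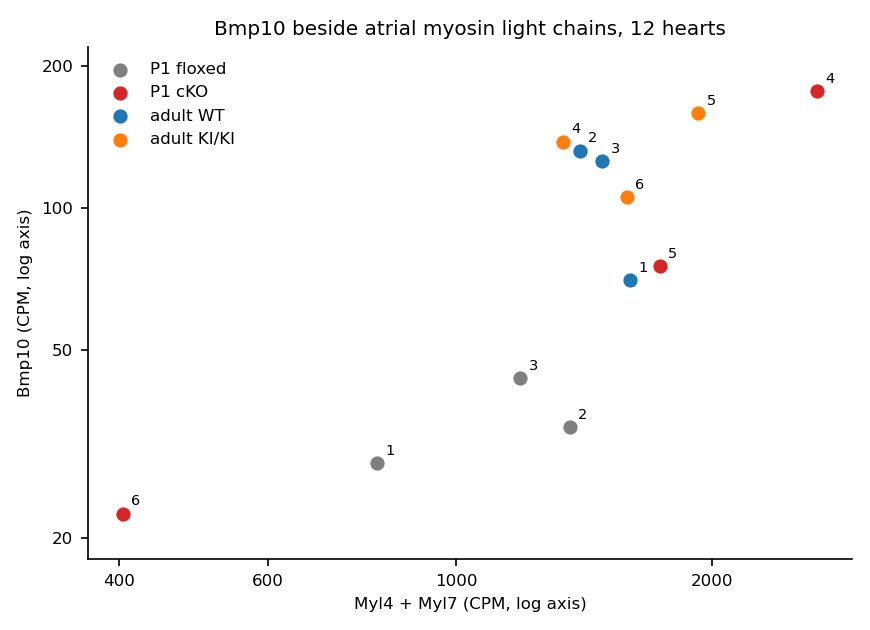
Bmp10 against the summed atrial myosin light chains Myl4 and Myl7 in the 12 hearts, both in CPM on log axes, coloured by group and numbered by mouse. cKO 6 has the lowest value of both measures and cKO 4 the highest.

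Markers of other cell types also moved at P1, where 9.15% of all genes tested were called higher and 7.31% lower. The 8 cardiomyocyte markers summed to 43696 to 50016 CPM in floxed hearts and 33155 to 37755 in cKO hearts, with 4 of 8 called lower. Fibroblast markers summed to 2570 to 2910 CPM in floxed and 3167 to 3781 in cKO hearts, with 2 of 7 called higher. Endothelial markers summed to 1155 to 1259 and 1342 to 1644 CPM, with 1 of 7 called higher, and macrophage markers to 88.8 to 101 and 102 to 207 CPM, with 3 of 6 called higher. Endocardial markers summed to 211 to 257 CPM in floxed and 173 to 461 in cKO hearts, with 1 of 5 called higher, and mural cell markers to 895 to 982 and 584 to 1013 CPM, with 2 of 6 called higher. None of the markers in these 6 lists was at 0 in any heart. Their part in the ligand changes was not tested.

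Other genes of the pathway were described from lists of its parts. The share beside each P1 list is again 9.15% of all genes tested called higher and 7.31% lower. Among other ligands of the family, 13 of 23 were tested, with 2 called higher and 1 lower. Gdf15, a ligand induced by cell stress, went from 0.466 ± 0.0590 to 9.96 ± 3.53 CPM (log2 fold change 4.41, SE 0.32, adjusted p = 0.00494). Gdf6 went from 2.27 ± 0.536 to 22.0 ± 12.5 CPM (log2 fold change 3.28), and Bmp5 fell from 9.41 ± 2.92 to 3.59 ± 0.520 CPM (log2 fold change -1.39). The median of this list was -0.32, and 8 of the 13 genes had negative values.

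Receptors and Smads moved in both directions. Of 7 type I receptors, Acvrl1 and Acvr1 rose by 0.66 and 0.46 on the log2 scale and Acvr1c fell by 1.70. Of 5 type II receptors, only Acvr2a was called, with a log2 fold change of -0.44. Among 5 co-receptors tested, Eng, which encodes endoglin of endothelial cells, rose by 0.93 and Tgfbr3 fell by 0.86. Of 6 Smads, Smad1 rose by 0.57 (adjusted p = 0.0175) and Smad3 fell by 0.51 (adjusted p = 0.0353). The receptor kinases Tgfbr1 and Tgfbr2, used by TGF-β itself, were not called.

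The genes that store, release or oppose these ligands were described next. Of 14 genes for latency, activation and processing, 6 were called higher and 0 lower, with a list median of 0.51. They included the matrix proteins that store latent TGF-β, Ltbp4 (log2 fold change 0.55) and Fbn1 (0.75), and its activators Thbs1 (157 ± 27.0 to 662 ± 330 CPM, 2.08) and Itgav (1.00). Of 14 extracellular antagonists tested, 4 were called higher and 0 lower: Fstl3, which binds activin, at 1.71 ± 0.120 and then 6.95 ± 1.91 CPM (2.02), Bgn (1.04), Fstl1 (0.78) and the secreted Wnt and BMP inhibitor Sost (2.21). Of 10 intracellular antagonists, Smad7, the feedback inhibitor, rose by 1.31 and Fkbp1a by 0.50.

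Of 14 known targets of TGF-β and activin, 9 were called higher and 0 lower, with a median log2 fold change of 0.73. Over all genes tested, 9.15% were called higher and 7.31% lower. Ctgf went from 92.1, 131 and 113 CPM in floxed hearts to 1726, 1365 and 597 in cKO hearts (log2 fold change 3.46, SE 0.40, adjusted p = 0.00671). Pmepa1 (0.85), Postn (0.79) and Fn1 (0.91) also rose. The last 2 encode matrix proteins whose RNAs were already at 1281 ± 59.2 and 1229 ± 102 CPM in floxed hearts. Of 15 BMP targets tested, 4 were called higher, namely Smad7, Atoh8 (1.14), Id1 (0.47) and Id3 (0.56), and 1 lower, Nkx2-5 (-0.36), which was named after its value was seen. Smad7 is in 3 of these lists. The TGF-β and activin targets called numbered 0 without floxed 1, 1 without floxed 2, 6 without floxed 3, 7 without cKO 4, 2 without cKO 5 and 12 without cKO 6, and the latency genes called were 0, 0, 2, 5, 0 and 8 in the same fits.

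**Figure D4:**
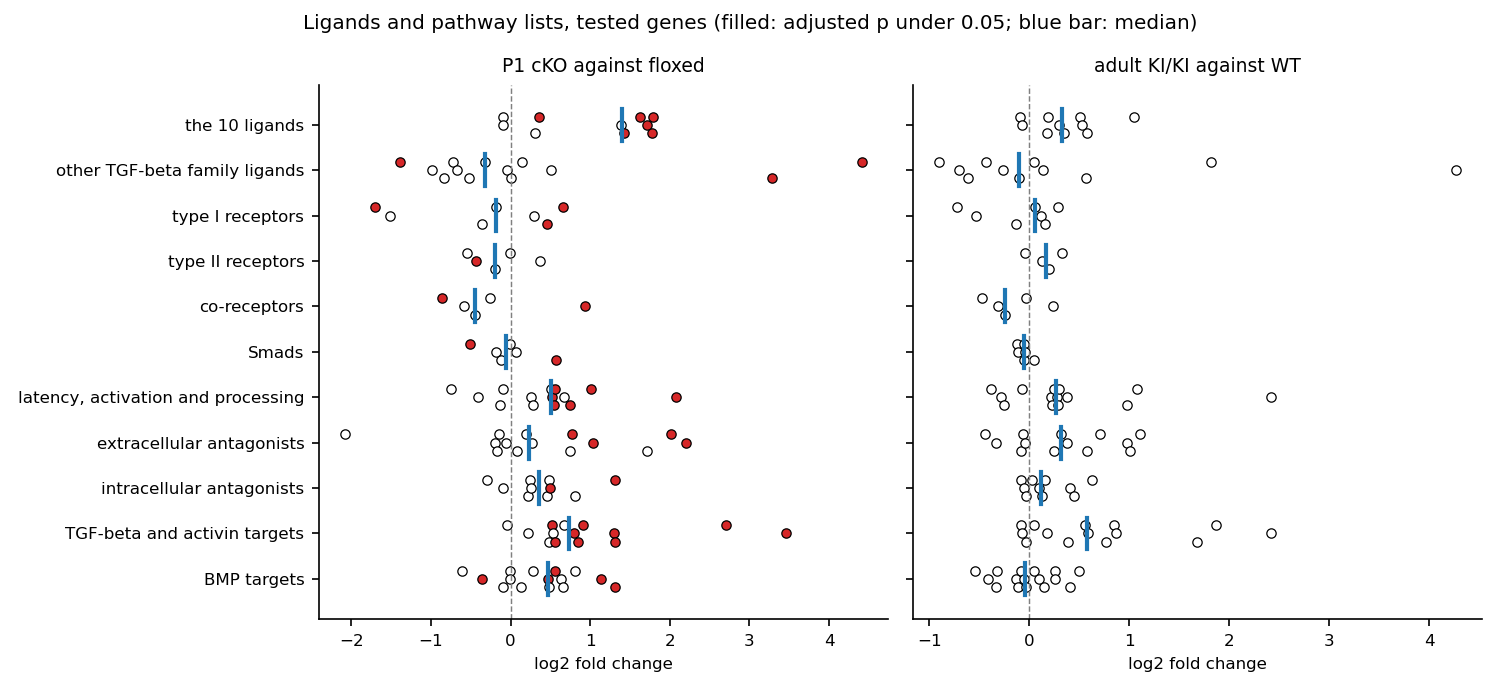
Log2 fold change of each tested gene of the 10 ligands and of 10 lists of pathway genes, at P1 on the left and in adults on the right, with filled points for an adjusted p under 0.05 and a blue bar for the median. At P1 the ligands have the highest median, 1.40, followed by the TGF-β and activin targets at 0.73, and no point is filled in the adult panel.

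The KI/KI mutation was examined in adult hearts against WT. None of the 10 ligand RNAs was called, and edgeR called 0 of 14592 genes, or 0% (smallest adjusted p 0.0743). At an unadjusted p under 0.05, edgeR found 3 members, Tgfb2, Tgfb3 and Bmp6, each higher, where 8.77% of genes were higher at that p. The same 3 had every KI/KI heart above every WT heart, against 11.2% of all genes. DESeq2, the tool named in the study's methods, called 1 member, Tgfb2, and 3.54% of the 14616 genes it adjusted. The members' median log2 fold change was 0.32, and that of all genes was 0.0023.

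Tgfb2 had 20.3, 20.4 and 21.7 CPM in WT hearts and 29.6, 56.4 and 42.4 in KI/KI hearts 4, 5 and 6. The WT hearts lay close together while the KI/KI hearts spread widely above them. Its log2 fold change was 1.05 (95% interval 0.53 to 1.57), with an adjusted p of 0.192 in edgeR and 0.000473 in DESeq2. In edgeR the adjusted p fell to 0.0343 without KI/KI 4, a fit that called 52 of all genes. With any other single heart left out it was 0.211 to 0.525. Tgfb3 had 40.0, 38.7 and 37.7 CPM in the WT group and 42.7, 81.6 and 48.8 in the KI/KI group, a log2 fold change of 0.58 (95% interval 0.03 to 1.14, adjusted p = 0.304). For Bmp6 the WT hearts gave 23.2, 25.6 and 23.4 CPM and the KI/KI hearts 27.4, 43.1 and 31.9, a log2 fold change of 0.51 (95% interval 0.12 to 0.90, adjusted p = 0.258). KI/KI 5 was the highest heart for all 3 genes, and KI/KI 4 the lowest of its group.

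The other ligands overlapped between WT and KI/KI hearts. Bmp4, which rose at P1, had 11.0, 12.9 and 12.2 CPM in WT hearts against 11.4, 18.6 and 10.8 with the mutation, and its log2 fold change of 0.19 became -0.11 without KI/KI 5. Inhba had 1.64, 2.90 and 1.66 CPM in WT hearts and 2.14, 3.45 and 3.26 in KI/KI hearts, from 51 to 143 counts per heart, with an interval of -0.19 to 1.24 on the log2 scale. Bmp10 ranged from 70.3 to 133 CPM in WT and from 106 to 159 in KI/KI hearts (log2 fold change 0.30, interval -0.32 to 0.92). Tgfb1 went from 33.1 ± 1.40 to 37.3 ± 4.74 CPM and Inhbb from 3.06 ± 0.406 to 3.87 ± 1.25 CPM. Bmp2 and Bmp7 had log2 fold changes of -0.09 and -0.07, with intervals from -0.67 to 0.49 and from -0.87 to 0.73.

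KI/KI 5 also stood apart in its markers. Its cardiomyocyte markers summed to 60807 CPM, against 74951 and 83954 in the other KI/KI hearts and 83063 to 94697 in WT hearts. Its fibroblast markers summed to 1955 CPM, against 1065 and 1299 in the other KI/KI hearts and 922 to 1078 in WT hearts. The part of these shifts in the ligand levels was not tested. Without KI/KI 5, Tgfb2 still had a log2 fold change of 0.80, while Tgfb3 and Bmp6 had 0.24 and 0.30.

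**Figure D5:**
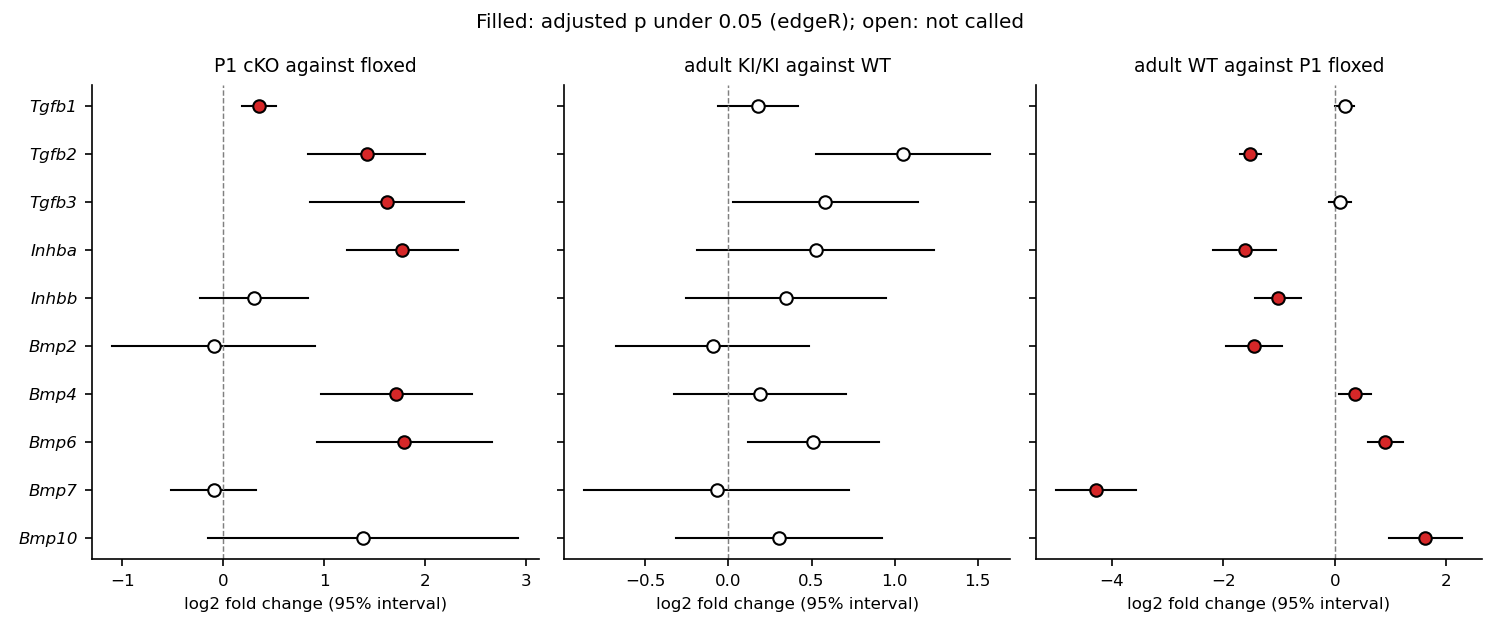
Log2 fold change of the 10 ligand RNAs with its 95% interval in the 3 comparisons, each on its own axis, with filled points for an adjusted p under 0.05 in edgeR. At P1 6 points are filled, in adults none is, and with age Bmp7 lies at -4.29 while Bmp10 lies at 1.62.

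No gene of the pathway lists was called by edgeR in KI/KI hearts. At an unadjusted p under 0.05, edgeR found 1 to 5 genes per list in either direction. Of all genes, 8.77% were higher at that p, and the share that was lower is not given here. Only the counts of higher genes can therefore be set beside that share. The largest counts were 5 of 11 other ligands (3 higher), 5 of 14 latency genes (3 higher) and 4 of 14 targets of TGF-β and activin (4 higher). Next came 3 of 10 intracellular antagonists (3 higher) and 3 of 5 co-receptors (0 higher). DESeq2 called 3 of the other ligands and 1 gene each among co-receptors, extracellular antagonists and targets of TGF-β and activin, where it called 3.54% of all genes. Gdf15 averaged 0.428 ± 0.362 CPM in the WT group and 8.48 ± 5.25 in the KI/KI group (log2 fold change 4.27, adjusted p = 0.186 in edgeR and 2.15e-08 in DESeq2). Inha, which encodes the inhibin subunit that opposes activin, was at 6.94 ± 1.40 and 4.26 ± 0.322 CPM (log2 fold change -0.70). Among the targets, Timp1 was at 1.94 ± 0.291 and 7.02 ± 3.80 CPM (1.87) and Postn at 76.5 ± 4.94 and 243 ± 173 CPM (1.67). The matrix proteins Ltbp2 (2.42), Fstl1 (1.11) and Bgn (0.98) had positive values with all KI/KI hearts above all WT hearts, as had 11.2% of all genes. KI/KI 5 was the highest heart for each of them. It had Ltbp2 at 75.4 CPM against 10.6 and 20.6 in KI/KI 4 and 6, Fstl1 at 617 against 206 and 312, and Bgn at 1030 against 431 and 563. Furin, which cleaves the ligand precursors, had a value of -0.25. The co-receptors Rgma and Hfe2 had -0.47 and -0.24, and Bmpr2, Acvr1, Bambi and Smurf2 had 0.20, 0.28, 0.41 and 0.16. Smad4 and the BMP target Id1 had -0.12 and -0.54.

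Whether the mutation and the deletion differed in their effect was tested as an interaction over all 12 hearts. edgeR called none of the 10 ligands, where 2.51% of 15729 genes were called. The largest differences, each a KI/KI effect minus a cKO effect on the log2 scale, were -1.53 for Bmp4 (SE 0.41, adjusted p = 0.0716), -1.28 for Bmp6 (0.43, adjusted p = 0.129) and -1.25 for Inhba (0.38, adjusted p = 0.104). DESeq2 called these 3, with adjusted p of 0.00516, 0.0305 and 0.0232. Without cKO 6, edgeR called Tgfb3, Inhba, Bmp4 and Bmp6, and without KI/KI 5 it called Bmp4 (adjusted p = 0.0460). How many of all genes the DESeq2 and left-out fits of the interaction called was not counted, so these calls have no share beside them. In the P1 comparison, leaving out cKO 6 raised edgeR's calls over all genes from 2520 to 3385. For Tgfb2, the difference was -0.37 (SE 0.35, adjusted p = 0.585). Allele, age and the cells that carried the change differed together between the models and cannot be told apart.

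Adult WT and P1 floxed hearts were compared to show how the ligands differ between the newborn and the adult heart. This comparison uses the control hearts of both others, so its values are not independent of theirs, and age, mouse line and collection cannot be told apart in it. Of the 10 ligands, 3 were called higher and 5 lower in adult hearts, where 31.4% of 15183 genes were called higher and 33.3% lower. Bmp7 was 41.8, 41.2 and 56.3 CPM at P1 and 3.46, 2.35 and 1.42 in adults, a 19.5-fold lower level (log2 fold change -4.29, SE 0.30, adjusted p = 1.92e-05). That fall left 52 to 108 counts per WT heart. Tgfb2 (-1.52), Inhba (-1.61), Bmp2 (-1.44) and Inhbb (-1.02) also fell, with adjusted p from 3.63e-06 to 0.00128.

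The 3 ligands called higher in the adult by edgeR were Bmp10, Bmp6 and Bmp4. Bmp10 rose from 35.5 ± 7.47 to 110 ± 34.2 CPM (log2 fold change 1.62, SE 0.27, adjusted p = 0.00194), and Bmp6 from 12.8 ± 2.22 to 24.1 ± 1.34 CPM (0.90, SE 0.14, adjusted p = 0.000614). Bmp4 rose by 0.36 (adjusted p = 0.0327), a call that was lost without WT 2, WT 3, floxed 1 or floxed 2, with adjusted p up to 0.0950. Tgfb3 (0.09, interval -0.10 to 0.28) and Tgfb1 (0.18, adjusted p = 0.0626) were not called by edgeR, although every WT heart lay above every floxed heart for Tgfb1 and DESeq2 called it higher (adjusted p = 0.0460). Cardiomyocyte markers were called higher in adults for 8 of 8 genes, atrial markers for 3 of 6 (Sln, Stard10 and Nppa) and macrophage markers for 5 of 6. Mural cell markers were called higher for 4 of 6 genes and lower for 1, endocardial markers higher for 1 of 5 and lower for 3. Fibroblast markers were called higher for 1 of 7 genes and lower for 3, and endothelial markers higher for 1 of 7 and lower for 2. Epicardial and mesothelial markers were called lower for 3 of 6. The part of these marker shifts in the ligand differences was not tested. In the fit of the 7 hearts under the lung marker limit, 2 WT hearts stood against 1 floxed heart, which was assumed to vary like the other groups. There the log2 fold changes were -1.56 for Tgfb2, -1.53 for Inhba and -4.28 for Bmp7. Those of Bmp10 and Bmp6 were 1.22 and 0.70.

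For each ligand called with a change of more than 2-fold in any comparison, the genes with the most similar log2 CPM profile over the 12 hearts were found among 15729 genes, by the root mean square difference of centred profiles. For Tgfb2, which itself varied by 1.07, Kdelr3 and Tmem158 were among the 3 nearest genes, at 0.25 and 0.26. Kdelr3, which encodes a receptor that returns proteins to the endoplasmic reticulum, was at 7.29 to 8.89 CPM in WT, 8.92 to 17.8 in KI/KI, 22.1 to 27.7 in floxed and 32.8 to 51.3 in cKO hearts. Tgfb3 and Bmp4 were nearest to each other, at 0.20, and next came Cd55 and Trim47 for Tgfb3 and Vmp1 and Pxdc1 for Bmp4. Inhba was nearest to Mfsd2a, Npas4 and Gm13749. Of these, Mfsd2a had at most 3 counts in each adult heart, and Gm13749 was at 0.0321 to 0.507 CPM there. Bmp6 was nearest to Dclk3, Nuak1 and Synm, at 0.30 to 0.32.

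Bmp2, Inhbb, Bmp7 and Bmp10 were called with a change of more than 2-fold only in the age comparison. Bmp2 was nearest to Gata5, a transcription factor of the endocardium, at 0.17. Next came 4930417O22Rik and Nkd1. The first of these was at no more than 0.0305 CPM in each adult heart, under the floor of 3 counts. Gata5 was at 3.46 to 4.13 CPM in floxed hearts and at 3.74, 4.61 and 1.33 in cKO hearts, with cKO 6 lowest as for Bmp2. Bmp7 was nearest to Zdbf2, Zfp618 and Ncam1, at 0.35 to 0.43 where Bmp7 varied by 2.14. Inhbb was nearest to Tpcn2, Antxr1 and Clip3, at 0.13 to 0.14, and the 3 genes nearest to Bmp10 included the matrix Gla protein gene Mgp and Dpep1, at 0.40 and 0.42. These likenesses describe 12 hearts that share their group means and library scaling.

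The genes lie apart on the genome, in GRCm38 coordinates. Tgfb2 spans chr1:186622792-186705989 and Inhbb chr1:119415465-119422248, both on the minus strand. Inhba (chr13:16011851-16031621) and Bmp6 (chr13:38345107-38500302) are on the plus strand of one chromosome. Tgfb1 is at chr7:25687002-25705077 and Tgfb3 at chr12:86056745-86079041. Bmp2 is at chr2:133552159-133562885, Bmp7 at chr2:172868012-172940321, Bmp4 at chr14:46383520-46390669 and Bmp10 at chr6:87428994-87437677. Exons of 4 ligands overlap genes of the opposite strand, over 124 bases in Tgfb2 (Gm29491), 89 in Bmp4 (Gm15217), 224 in Bmp6 (Txndc5) and 163 and 257 in Tgfb3 (Gm37804 and Gm48008), at most 7.60% of the exon length by any one of them. The strand setting of the counting is not given in the sources used here, so reads in these stretches could be assigned to either gene or dropped.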

How the data were processed

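RNA of heart samples was sequenced as single-end reads. Per the submitters' notes, reads were trimmed (Trim Galore) and aligned to mm10 with STAR 2.7.2b, and Bowtie2 2.3.4.3 and SAMtools 1.9 were also used. The authors deposited whole-number counts per gene from HTSeq, not normalized. Totals were 37063669 to 44789753 counts per library. The floor of 3 counts covers counting error only, and 0 sample columns went unused.

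The counts entered edgeR 4.0.16 under R 4.3.3, where 6 libraries per comparison were scaled by TMM, filtered by filterByExpr and tested by the robust quasi-likelihood test, with Benjamini-Hochberg adjustment over all genes tested. A gene was called at an adjusted p under 0.05. SEs follow from each log2 fold change and its F statistic. DESeq2 1.42.0, used in the study's methods, was an alternative. p-values measure the spread between mice. The 10 genes, the pathway lists and the tests were chosen with earlier results of these data known. Every ligand is named in each comparison, with up to 4 genes called at P1 and 2 adult genes of smallest unadjusted p from each list. Profiles were compared as log2(CPM + 0.1), and 2 of the genes most alike are not reported here. Other alternatives were RLE factors, an absent or stricter filter (10 counts in each library), one fit of all 12 hearts, a 2-fold minimum, a replicate block, each heart left out and, added after seeing the data, the 5 hearts with lung markers left out. Scripts were tested on simulated counts. Exon lengths came from GENCODE M21, not the annotation used for counting. Replicates were not duplicates, with a chi-square per degree of freedom of 20.2 to 146 between hearts of a group.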

Additional observations from a re-analysis of the deposited data

How the results depend on the processing

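At P1 the count of 6 ligands called held under DESeq2, RLE factors, both count filters and the fit of all 12 hearts. Over all genes DESeq2 called 3758 there, against 2520 in edgeR. The ligand count was 5 with a 2-fold minimum and ranged from 0 to 7 with 1 heart left out. Calls are not given for the fit without the 5 lung-marker hearts, which left 1 floxed heart. In adults the count of 0 became 1 with DESeq2 (518 of all genes, against 0) and ranged from 0 to 1 with a heart left out. With age the count of 8 ranged from 7 to 9 under all settings but 2. These were a 2-fold minimum (6) and the fit without lung-marker hearts, where 1 floxed heart was left. Shares of all genes called are not given for these other age settings. The interaction called 0 ligands, 3 with DESeq2 and 0 to 4 with a heart left out, and calls over all genes were not counted in those other fits. With the replicate block, the age comparison called 7 ligands (Bmp4, 0.36, adjusted p = 0.0570) and the interaction 0, and no other call changed. WT and KI/KI hearts share no replicate number, nor do floxed and cKO hearts. Replicate numbers were not taken as pairs in the main fits. Deviations of same-numbered WT and floxed hearts correlated at -0.43 to -0.16 and of KI/KI and cKO hearts at 0.07 to 0.18. With 3 hearts per group, these values cannot show whether same-numbered hearts were handled together.

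Signs changed only in values that were not called. With a heart left out, adult log2 fold changes ranged from -0.28 to 0.072 for Bmp2, -0.11 to 0.33 for Bmp4 and -0.34 to 0.28 for Bmp7, and P1 values from -0.57 to 0.27 for Bmp2 and -0.26 to 0.065 for Bmp7. Without lung-marker hearts Bmp2 was at 0.0074 in adults and 0.11 at P1. Interaction values ranged from -0.27 to 0.19 for Inhbb, -0.37 to 0.48 for Bmp2 and -0.26 to 0.37 for Bmp7 with a heart left out, and were 0.16 for Bmp2 with the replicate block and -0.012 for Bmp7 with DESeq2. The cause was not tested. The smallest ligand count in a heart was 51 (Inhba in WT 1), whose counting error adds to the spread between mice.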
